A study of Mus musculus with 7 samples.

Results

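The 4 mature miRNAs cut from the hairpins miR-191 and miR-425 were taken from the 640 mature miRNAs counted in Ago2 immunoprecipitates of mouse plasma. They are miR-191-5p, miR-191-3p, miR-425-5p and miR-425-3p, that is every row of either hairpin on either arm, and they were chosen by name without use of their values. The libraries came from mice labelled c57 (adult male C57BL/6JOlaHsd by the study's methods) with status epilepticus (SE) evoked by kainic acid (KA) injected into the amygdala, and from control mice given PBS in the same way. Plasma was pooled 4 h, 8 h or 24 h after the injection of PBS, and at these times or 2 weeks after KA. Each of the 7 libraries was 1 pool of plasma from 10 mice, and by the methods midazolam or lorazepam was given after KA. The control pool of the 2-week time-point was not analysed here, and SE at 2 weeks was compared with control 24 h, following the study. A condition is 1 library here, so differences between SE and control carry no replicate check, and fewer cells of a type shedding a miRNA and less of it per cell cannot be told apart.

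A miRNA hairpin is cut from a longer primary transcript by Drosha and then by Dicer, which leaves a duplex of a 5p and a 3p strand. Argonaute proteins such as Ago2 keep 1 strand of the duplex and use its seed, bases 2 to 8, to find target mRNAs, while the other strand is usually degraded. Hairpins that lie next to each other on a primary transcript are made together but can be processed and kept at different rates. miR-191-5p is abundant in many tissues and in blood cells, and miR-191-5p and miR-425-5p are both common reference assays for PCR in plasma. The study classed miR-191-5p as ubiquitous by tissue and as microglia-enriched among brain cells.

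In RefSeq (GRCm38.p6) the 74-base hairpin of Mir191 lies at chr9:108568319-108568392 and the 85-base hairpin of Mir425 at chr9:108568777-108568861, both on the plus strand and with 384 bases between them. Both lie within the RefSeq span of Dalrd3 (chr9:108567484-108572773), a protein-coding gene. Mir191 starts 835 bases after the start of that span. In the GENCODE M21 annotation Dalrd3 starts at position 108569886, which is 1024 bases past the end of Mir425, so the 2 annotations differ on whether the hairpins are inside the host gene. Exons of the RefSeq models were not used here.

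The 4 mature sequences (RefSeq, GRCm38.p6) are shown because the members can be told apart by their seeds, in capitals, and 5′ to 3′:
miR-191-5p: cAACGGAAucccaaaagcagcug
miR-191-3p: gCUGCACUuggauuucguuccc
miR-425-5p: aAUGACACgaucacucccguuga
miR-425-3p: aUCGGGAAugucguguccgcc

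The 4 seeds differed from one another. Among 1679 mature mouse miRNAs in the RefSeq table, none shared a seed with miR-191-5p, miR-191-3p or miR-425-3p. Only miR-489-3p shared the seed of miR-425-5p, and it was not among the miRNAs counted. The members are therefore not part of a counted seed family.

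Depth ranged from 2043220 counts in control 4 h to 5405357 in SE 4 h. Libraries were scaled by trimmed mean of M-values (TMM), and levels are CPM, counts relative to the scaled total of the library, unless called plain, which uses the unscaled total. The 5 erythroid markers held 62.6% to 76.1% of the counts of a library, nearly all of it miR-486b-5p. Control 4 h had 891856 CPM of miR-486b-5p in a sum of 891858, with miR-144-3p at 0. Over the 7 libraries miR-451a had 1.72 to 20.5 CPM, and miR-486a-5p was counted only in SE 24 h, with 1 count. In each library the low counts clustered near a value of its own, here the low-count mode, which was 102 in control 4 h and lay between 33.1 and 60.2 for the other 6 libraries. The 3 brain markers summed to 1142 to 2273 CPM, mostly miR-128-3p, which had 1072 to 2273 CPM, while miR-124-3p was at 0 in 6 of 7 libraries and miR-9-5p at 0 in SE 2 weeks. The liver marker miR-122-5p was at 0 in 4 of 7, and the 4 markers of endothelium and platelets summed to 1654 to 3008 CPM.

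miR-191-5p was among the most abundant miRNAs of every library and miR-425-5p was far below it. Control pools gave miR-191-5p 15272 counts at 4 h, 40896 at 8 h and 72069 at 24 h. SE pools gave it 43198 counts at 4 h and 32642 at 8 h, then 43826 at 24 h and 59619 at 2 weeks. It ranked between 4 (control 24 h and SE 2 weeks) and 13 (SE 4 h) in its library and held from 0.747% of the counts of control 4 h (95% Wilson interval 0.736 to 0.759) to 2.35% of those of SE 2 weeks (2.33 to 2.36). The intervals cover counting error only.

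miR-425-5p was read 313 times at 4 h, 706 times at 8 h and 724 times at 24 h in control. In SE it was read 393 times at 4 h and 469 times at 8 h, then 495 times at 24 h and 658 times at 2 weeks. Its rank was between 88 in SE 2 weeks and 118 in SE 4 h. The 5p strands of neighbouring hairpins were thus separated by a factor of 48.8 to 109.9 in counts, a ratio of reads and not of molecules.

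On the TMM scale the controls had 8764 CPM of miR-191-5p at 4 h, 9484 at 8 h and 18263 at 24 h. The SE libraries had 10145 CPM at 4 h and 8963 at 8 h, but 15628 at 24 h and 19312 at 2 weeks. The control and SE ranges overlapped, and in both arms the 24 h library was above those of 4 h and 8 h.

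The controls had 179.6 CPM of miR-425-5p at 4 h, 164 at 8 h and 183 at 24 h. The SE libraries had 92.3 CPM at 4 h and 129 at 8 h, then 177 at 24 h and 213 at 2 weeks. On this scale the 3 control values lay within 1.12-fold of each other, while on plain totals they were 153, 200 and 212 CPM. The SE values spanned 2.31-fold, with the lowest and the highest of all 7 libraries among them.

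**Figure D1:**
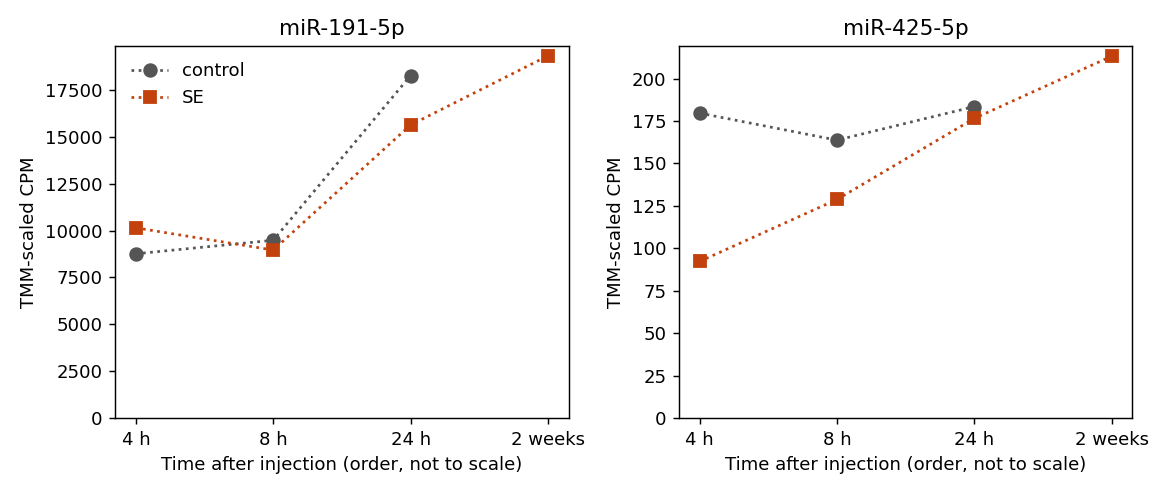
TMM-scaled CPM of miR-191-5p and miR-425-5p (vertical axes, from 0) at each time-point (horizontal axis, in order), with 1 point per library, circles for control and squares for SE, and dotted lines only to join a group. miR-191-5p is between 8764 and 10145 CPM in all 4 libraries of 4 h and 8 h and between 15628 and 19312 in the 3 later ones, while miR-425-5p is lowest in SE 4 h at 92.3 CPM.

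SE libraries were set against their controls by the exact test of edgeR, with the biological coefficient of variation (BCV) fixed at 0.1 as the study did. Calls needed a 1.5-fold change or more with an unadjusted p below 0.05, among miRNAs with 50 CPM or more in either library. This compares the reads of a pair of libraries, not the conditions. For miR-191-5p, no call was made at any of the 4 time-points against the control the study used. Its log2 fold change (SE minus control) was 0.21 for the 4 h pair, -0.08 for the 8 h pair, -0.22 for the 24 h pair and 0.08 for SE 2 weeks. With the 3 controls summed in place of the matched one it was -0.34 at 4 h and 0.29 at 24 h, so the direction at these times depended on the control library. SE 2 weeks has no control of its own time, and against control 4 h, control 8 h or the summed controls it was called higher, at 1.14, 1.03 and 0.59. In these comparisons 121 of 182, 62 of 145 and 50 of 147 miRNAs tested were called in either direction.

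At 4 h, where 67.2% of the 189 miRNAs tested were called, miR-425-5p was called lower in SE, with a log2 fold change of -0.96 (1.95-fold), and 55 of the miRNAs tested had a lower value. Calls in that direction were made for 34.9% of the miRNAs tested. At a BCV of 0.4 the miR-425-5p call was lost, and the BCV estimated in the quasi-likelihood fit below was larger, 0.56. Its 313 counts in control 4 h were 3.06 times the low-count mode of that library, and its 393 counts in SE 4 h were 10.4 times the mode of 37.6 there. The part of these low counts in the difference was not tested.

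Against the other 2 controls, which are not of the same time-point, miR-425-5p in SE 4 h was lower too, at 92.3 CPM against 164 and 183. At 8 h its log2 fold change was -0.35, at 24 h -0.06 and at 2 weeks 0.22, with no call. The background shares of called miRNAs in these comparisons were 50% of 154 tested, 44.7% of 141 and 31.7% of 145. The median log2 fold change of all miRNAs tested was -0.06 for the 4 h pair, 0.23 for the 8 h pair, 0.04 for the 24 h pair and 0.01 for SE 2 weeks.

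**Figure D2:**
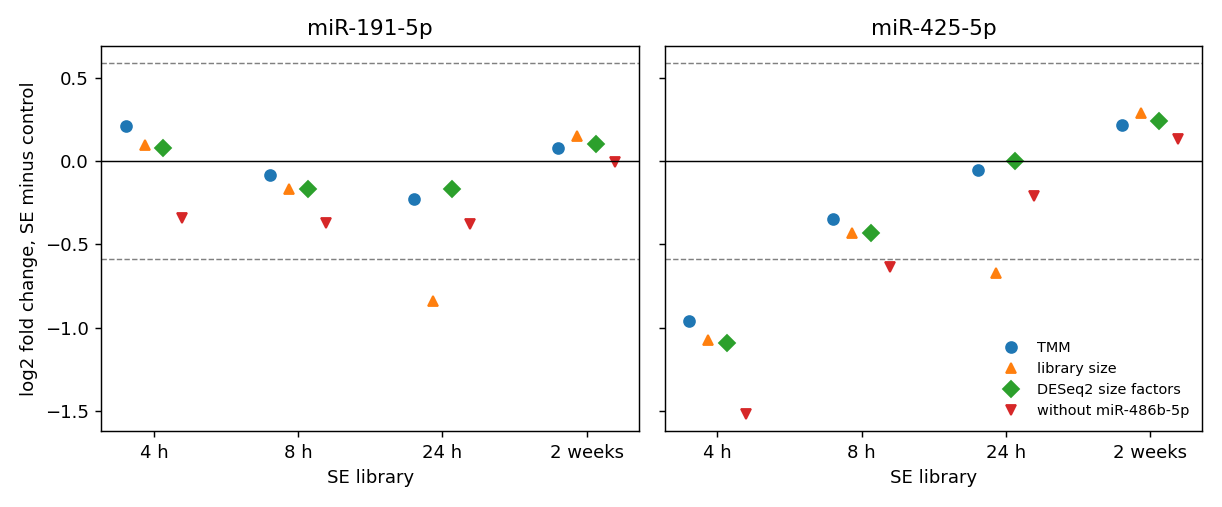
log2 fold change (SE minus control) of each 5p strand at the 4 time-points, with 1 point for each way of scaling the libraries and dashed lines at a 1.5-fold change in either direction. miR-425-5p at 4 h lies below the lower line under all 4 scalings, whereas at 24 h scaling by library size alone puts both miRNAs below it (-0.84 and -0.67).

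The 24 h comparison depended on scaling. On plain totals miR-191-5p had 11787 CPM in SE 24 h and 21118 in control 24 h, a log2 fold change of -0.84 that passed the 1.5-fold threshold, against -0.22 with TMM. For miR-425-5p the plain values were 133 and 212 CPM, a log2 fold change of -0.67, against -0.06 with TMM. The SE 24 h library had the lowest TMM factor, 0.754. The erythroid markers, nearly all miR-486b-5p, held 76.1% of its counts, against 67.1% in control 24 h.

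The SE libraries of 4 h, 8 h and 24 h were also set against the 3 control libraries by the quasi-likelihood test of edgeR with p-values adjusted by Benjamini-Hochberg. The 3 libraries of a side differ in time and do not replicate a condition. The common BCV estimated from these libraries, which includes differences in time, was 0.56. It is above the 0.1 fixed for the exact test and the alternative of 0.4. The mean level of miR-191-5p was 11579 ± 3556 CPM in SE and 12170 ± 5289 in control (SD, n = 3 libraries each). The log2 fold change was -0.10 ± 0.35 (SE of the estimate), with an adjusted p = 0.957 by the quasi-likelihood test. The SE library was below its control at 2 of 3 time-points.

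For miR-425-5p the means were 133 ± 42.2 CPM in SE and 176 ± 10.5 in control (SD, n = 3 libraries each). The log2 fold change was -0.43 ± 0.45 (SE of the estimate), with an adjusted p = 0.811 by the quasi-likelihood test, and the SE library was the lower at 3 of 3 time-points. Neither miRNA passed at an adjusted p under 0.05. Of the 136 miRNAs tested 0 passed (0%), while 15 (11%) had an unadjusted p under 0.05, and DESeq2 passed 4 with 16 at an unadjusted p under 0.05. The range of adjusted p-values over the 12 alternatives was 0.759 to 0.997 for miR-191-5p and 0.636 to 0.997 for miR-425-5p.

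On the TMM scale the levels of miR-191-5p were further apart between early and late libraries of an arm than between SE and control at the same time. Between control libraries, miR-191-5p was called higher at 24 h than at 4 h (log2 fold change 1.06, where 69.6% of 181 miRNAs tested were called and 26.5% higher) and higher at 24 h than at 8 h (0.95, where 45.4% of 141 were called and 26.2% higher). It was not called between control 4 h and 8 h (0.11, with 59.3% of 177 called). The 3 comparisons between control libraries thus called 45.4% to 69.6% of the miRNAs tested, against 31.7% to 67.2% for SE against control.

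Among SE libraries miR-191-5p was called higher at 24 h than at 4 h (0.62, with 52.6% of 152 called and 15.1% higher) and than at 8 h (0.80, with 55.5% of 155 called and 22.6% higher). SE 2 weeks was called above SE 4 h (0.93, with 51.9% of 156 called and 16.7% higher) and SE 8 h (1.11, with 59.9% of 162 called and 27.8% higher). It was not called above SE 24 h (0.31, with 39.6% of 144 called). On plain totals the difference between SE 24 h and SE 4 h was 0.56 and under the threshold. At a BCV of 0.4 the calls of both 5p strands between 4 h and 24 h or 2 weeks, the comparisons refitted, were all lost. Whether the change from 4 h to 24 h differed between SE and control was not tested.

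miR-425-5p was not called between any of the 3 pairs of control libraries, whose log2 differences were -0.13 (8 h minus 4 h), 0.03 (24 h minus 4 h) and 0.16 (24 h minus 8 h). Within SE it was called higher at 24 h than at 4 h (0.94), at 2 weeks than at 4 h (1.21) and at 2 weeks than at 8 h (0.73). The other SE steps, 0.48 from 4 h to 8 h (where 37.1% of 159 miRNAs were called), 0.45 from 8 h to 24 h and 0.27 from 24 h to 2 weeks, were not called. In order of TMM level, SE 4 h and SE 8 h were below the 5 other libraries. The 3 controls and SE 24 h lay between 164 and 183 CPM, within 1.5-fold of one another. On plain totals the order differed, with SE 24 h at 133 CPM below SE 8 h at 148.

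The ratio of miR-191-5p to miR-425-5p within a library does not depend on scaling. It follows whether the reads of the 2 5p strands kept their proportion, not the proportion in which the hairpins were made. In the controls it was 48.8 at 4 h (95% exact interval 43.6 to 54.7), 57.9 at 8 h (53.8 to 62.5) and 99.5 at 24 h (92.5 to 107). In SE it was 109.9 at 4 h (99.5 to 122) and 69.6 at 8 h (63.5 to 76.4), then 88.5 at 24 h (81.0 to 96.9) and 90.6 at 2 weeks (83.9 to 98.0). The ratio spanned 2.25-fold, and the interval of control 4 h lay below those of control 24 h and of all 4 SE libraries. The intervals cover counting error only and not the clustering of low counts. In control 4 h the 313 counts of miR-425-5p were 3.06 times the low-count mode of 102, so the separation of intervals is a description of reads.

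The SE 4 h ratio was 2.25 times that of control 4 h, the 8 h ratio 1.20 times and the 24 h ratio 0.889 times that of its control. The mean log2 ratio was 6.46 ± 0.33 in SE and 6.03 ± 0.54 in control (SD, n = 3 libraries of 4 h, 8 h and 24 h each). The difference was 0.42 (exact permutation test, two-sided, p = 0.3, where 0.1 is the smallest p that 3 against 3 allows). The difference was 0.21 without control 4 h, the shallowest library, 0.26 without SE 4 h and 0.72 without control 24 h. With both arms of each hairpin summed the control 8 h ratio was 49.3. The difference between SE and control was then 0.52 (exact permutation test, p = 0.3).

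**Figure D3:**
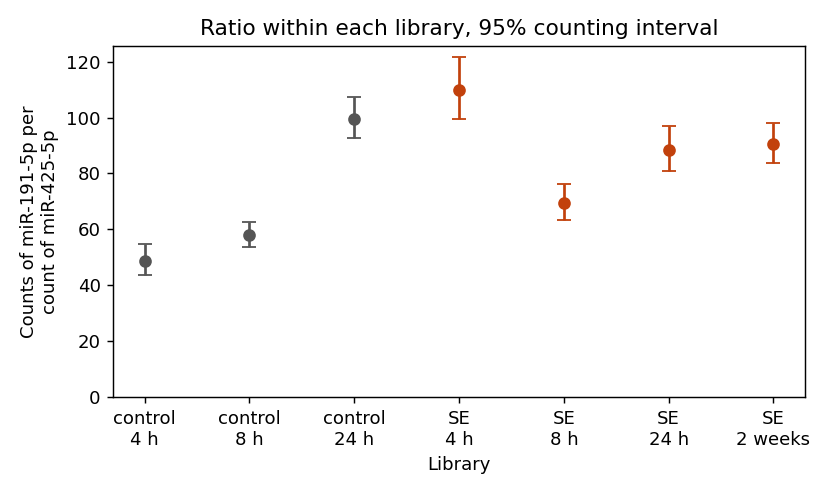
Counts of miR-191-5p per count of miR-425-5p (vertical axis, from 0) in each of the 7 libraries, control in grey and SE in orange, with bars for the 95% exact binomial interval, which covers counting error only. Control 4 h and 8 h lie at 48.8 and 57.9, and SE 4 h is the highest at 109.9.

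The minor strands were at or near the limit of detection. miR-191-3p had 102 counts in control 4 h, 0 in the other 2 controls, and in SE 0 at 4 h, 63 at 8 h and then 21 at 24 h and 55 at 2 weeks. These 4 values ranged from 0.464 to 1.66 of the low-count modes of their libraries. In the comparisons of SE with control it passed the filter only at 4 h, through the 58.5 CPM of control 4 h, and was called lower in SE there. Against a floor of 3 counts in SE 4 h, where it had 0, miR-191-3p was 83.1-fold higher in control 4 h. Its 102 counts in control 4 h were 0.998 of the low-count mode of that library. Control 8 h and control 24 h were at 0 as well. The call and the fold thus set control 4 h apart from other libraries and are not read as a difference between SE and control.

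miR-425-3p had 123 counts in control 8 h, 28 in control 24 h, 40 in SE 2 weeks and 0 in the other 4 libraries, and was never at 50 CPM. At 8 h it was at least 34.6-fold higher in control than in SE by the same floor, with 123 counts being 2.04 times the low-count mode. miR-191-3p was thus counted in 1 of 3 control and 3 of 4 SE libraries, and miR-425-3p in 2 of 3 and 1 of 4.

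Nearly all counts of the miR-191 hairpin were on the 5p strand, with the lowest share, 99.3%, in control 4 h (95% exact interval 99.2 to 99.5). In control 24 h the 3p strand had 0 counts, and a floor of 3 counts would be a share of 0.00416%. Low counts in that library clustered near 55.1, so the true share may be above this. For miR-425 the 5p share was 85.2% in control 8 h (82.6 to 87.5), 96.3% in control 24 h (94.7 to 97.5) and 94.3% in SE 2 weeks (92.3 to 95.9), while the other 4 libraries had no 3p count. In SE 4 h the same floor would be a 3p share of 0.763%, with low counts clustered near 37.6 there. Pooled over the 7 libraries the 3p strand held 0.0783% of the miR-191 counts and 4.84% of the miR-425 counts.

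Because both 5p strands serve as reference assays, their spread over the 7 libraries was compared with that of the 102 miRNAs at 50 CPM or more in every library. The SD of the log2 level was 0.51 for miR-191-5p, rank 61 of 102 from the steadiest, and 0.40 for miR-425-5p, rank 39. The median SD was 0.44. Other scalings placed miR-425-5p at rank 66 of 101 (library size), 53 of 103 (DESeq2 size factors) and 74 of 102 (counts without miR-486b-5p). In the same order miR-191-5p was at rank 72, 63 and 70. Without SE 4 h the SD of miR-425-5p fell to 0.24, rank 10.

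Among 9 other reference miRNAs, miR-423-5p had an SD of 0.16 (rank 4), miR-103-3p 0.23 (rank 7), miR-16-5p 0.28 (rank 13), miR-30e-5p 0.30 (rank 17), miR-93-5p 0.31 (rank 20), miR-484 0.38 (rank 32), miR-23a-3p 0.41 (rank 43) and miR-24-3p 0.48 (rank 56). miR-451a, an erythroid miRNA, was at 1.72 to 20.5 CPM and was not ranked. On plain totals the SD was 0.64 for miR-191-5p and 0.60 for miR-425-5p. These SDs mix time, treatment and library, and were not tested.

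**Figure D4:**
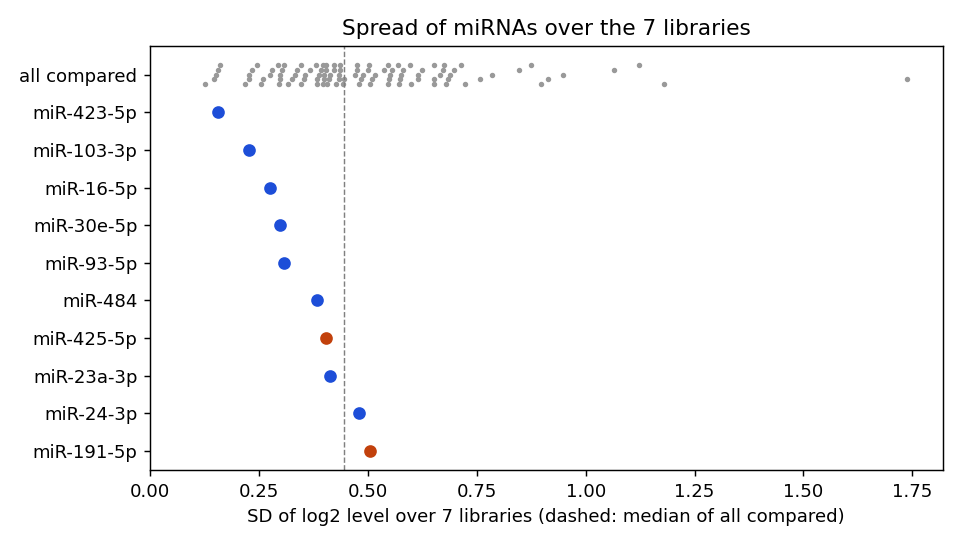
SD of the log2 TMM-scaled level over the 7 libraries (horizontal axis) for miR-191-5p and miR-425-5p (orange), 8 other reference miRNAs (blue) and, in the top row, all 102 miRNAs compared (grey), with the median as a dashed line. miR-191-5p, at 0.51, lies to the right of the median of 0.44 and of all 8 other reference miRNAs, and miR-425-5p lies at 0.40.

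The miRNAs whose counts kept the steadiest ratio to miR-191-5p over the 7 libraries were miR-26a-5p (SD of the log2 ratio 0.18), miR-128-3p (0.18), miR-142a-5p (0.19), miR-223-3p (0.19) and miR-21a-5p (0.21), against a median of 0.58 over 101 miRNAs. The same 5 miRNAs led when ordered by Pearson's r of log2 levels (0.93 to 0.95 over 7 libraries that share their depth and scaling). miR-425-5p, at 0.43, stood at position 23 of 101.

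miR-142a-5p and miR-223-3p, which are known from haematopoietic cells and, for the latter, from myeloid cells and platelets, are among the leukocyte markers compared here. In time order miR-142a-5p had 4127, 5182 and 8911 CPM in the 3 controls and 6680, 5010, 8438 and 8635 CPM in the 4 SE libraries. It too was above its 4 h and 8 h levels at 24 h in both arms. The summed level of the 5 leukocyte markers ranged from 4690 to 10187 CPM in control and from 5734 to 10029 CPM in SE, with miR-155-5p at 0 in control 4 h and SE 4 h and no other marker of the list at 0. In the same order the sum was 4690, 5807 and 10187 CPM in control, and 7433, 5734, 9396 and 10029 CPM in SE. Most of each leukocyte sum was miR-142a-5p, itself picked for its steady ratio to miR-191-5p, so the sum is not a separate comparison. miR-128-3p, first by Pearson's r, is in the brain marker list. The sum of that list was 1142, 1457 and 2273 CPM in control and 1364, 1259, 1825 and 1953 CPM in SE. It was mostly miR-128-3p, so its higher values at 24 h repeat those of a miRNA picked for its steady ratio to miR-191-5p. In the same list miR-9-5p had 70.0, 25.7 and 0.253 CPM in control and 31.9, 78.0, 39.6 and 0 CPM in SE. miR-124-3p was counted only in SE 24 h. The part of blood cells or of brain in the level of miR-191-5p was not tested.

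For miR-425-5p the steadiest ratios were with let-7a-5p (0.30), miR-215-5p (0.30), miR-103-3p (0.30), miR-221-3p (0.32) and miR-92a-3p (0.35), against a median of 0.63 over 101 miRNAs, and miR-191-5p was at position 21. By Pearson's r, 3 of these 5 were among the leading 5. None of the closest ratios was as steady as those of miR-191-5p with its 5 closest miRNAs.

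**Figure D5:**
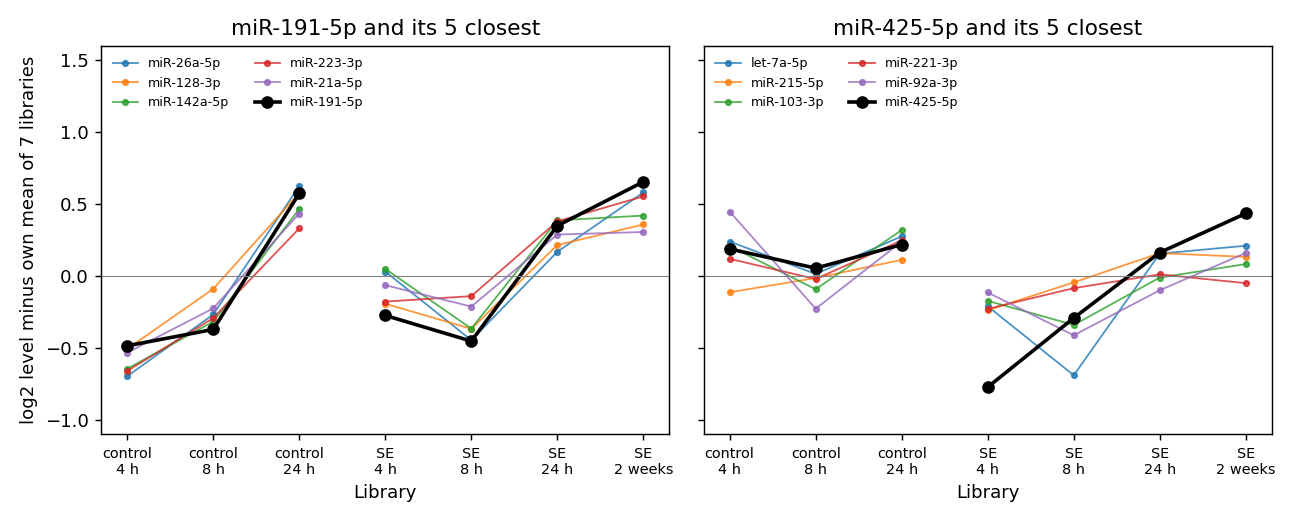
log2 level minus its own mean over the 7 libraries (vertical axis) for miR-191-5p (left, black), miR-425-5p (right, black) and the 5 miRNAs with the steadiest ratio to each (colours), by library, with lines joined within control and within SE. The left panel shows 6 miRNAs higher at 24 h and 2 weeks than at 4 h and 8 h, and the right panel shows miR-425-5p below its 5 closest miRNAs in SE 4 h.

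Other miRNAs from neighbouring hairpins gave a scale for this. Of 23 pairs of mature miRNAs at 50 CPM or more in all 7 libraries whose hairpins lie on the same strand within 10 kb, miR-191-5p with miR-425-5p (SD of the log2 ratio 0.43) was at position 10 from the steadiest, and the median was 0.48. The steadiest pairs were let-7a-5p with let-7f-5p (0.22), let-7a-5p with let-7d-5p (0.26) and miR-181a-5p with miR-181b-5p (0.27). The least steady were miR-181a-2-3p with miR-181b-2-3p (0.67), miR-19b-3p with miR-92a-3p (0.67) and miR-181a-2-3p with miR-181b-5p (0.65). Over all 5151 pairs of the 102 miRNAs at any distance the median was 0.65, and 950 pairs were steadier than miR-191-5p with miR-425-5p. Pairs share miRNAs and libraries, so these are descriptions with no test. Each of the steadiest pairs named lies within 1 family, let-7 or miR-181, and reads were matched with up to 2 mismatches. A mature miRNA can also come from more than 1 hairpin, as miR-24-3p, which paired with both miR-27a-3p and miR-27b-3p. The part of either in these SDs was not tested.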

How the data were processed

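Small RNA bound to Ago2 in plasma was sequenced in 7 libraries. In Chimera the authors removed adapters, kept reads of miRNA size and matched them by BLASTn to miRNAs of mouse miRBase with at most 2 mismatches, and the deposited values are raw counts per mature miRNA. The version of Chimera is not given in the sources used here. No molecular identifiers are stated.

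Counts were scaled by TMM over all 7 libraries in edgeR 4.0.16 (R 4.3.3, limma 3.58.1). The exact test used a BCV of 0.1, a prior count of 0.125 and miRNAs at 50 CPM or more in either library. The quasi-likelihood test used miRNAs at 50 CPM or more in at least 3 of 6 libraries. Both tests were tested on simulated data. DESeq2 1.42.0 gave other size factors and a Wald test. Python 3.11.15 with numpy 2.4.6, pandas 2.3.3, scipy 1.17.1 and matplotlib 3.10.9 gave ratios, intervals and figures. A floor of 3 counts per library, equal to 0.555 to 1.47 plain CPM, was used for folds and 3p shares against 0. The value around which low counts gathered is the mode of a kernel density of log counts from 6 to 300 with a bandwidth of 0.15. Marker and reference lists and the rule for naming miRNAs (all members, the 5 with the steadiest ratio to each 5p strand, the listed references and markers, and the extremes among neighbouring pairs) were chosen with earlier results of these data known. Hairpin positions and sequences are from RefSeq, and the 4 members were all matched by name.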

Additional observations from a re-analysis of the deposited data

How the results depend on the processing

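Of 240 alternative values, 7 were no longer called, 7 became called in the same direction, 14 changed direction (3 of them becoming called) and 21 counts, positions or spreads moved, and the others kept their direction and side of the threshold or moved little. The cause was not tested where a value changed. A looser filter or a rule by fold alone leaves a log2 fold change as it was, so those alternatives keep its direction by design. A BCV of 0.4 left 58, 23, 19 and 8 calls for SE in order of time, in place of 127, 77, 63 and 46. A filter of 10 CPM gave 218, 227, 230 and 178 calls among 281, 346, 334 and 313 miRNAs tested. A filter of any count gave 310, 257, 261 and 238 calls among 429, 424, 412 and 420. At 4 h 83 miRNAs were called against control 8 h and 76 against the 3 controls summed. Against control 4 h 122, 124 and 121 were called for the 3 later SE libraries.

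For miR-191-5p the log2 fold change at 4 h was -0.85, called, against control 24 h, -0.34 against the summed controls and -0.34 with scaling on counts without miR-486b-5p, an alternative chosen after seeing the data. Against control 24 h, 90 of 154 miRNAs tested were called for SE 4 h and 101 of 159 for SE 8 h. At 8 h the value of miR-191-5p was 0.032 against control 4 h and -1.03, called, against control 24 h. At 24 h it was -0.84, called, by library size, 0.83 and 0.72, both called, against control 4 h and 8 h, and 0.29 against the summed controls. For SE 2 weeks miR-191-5p was at 1.14, 1.03 and 0.59, each called, against control 4 h, control 8 h and the summed controls. These called 121 of 182, 62 of 145 and 50 of 147 miRNAs tested. Without miR-486b-5p the value was -0.0032.

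For miR-425-5p the value at 4 h, -0.96, was not called at a BCV of 0.4. It ranged from -1.51 to -0.83 over 12 alternatives and was called in 11. Among them the filters of 10 CPM and of any count and the rule by fold alone could not change the value or lose the call. At 8 h it was -0.64, called, without miR-486b-5p, where 83 of 160 miRNAs tested were called. At 24 h it was -0.67, called, by library size (88 of 144 miRNAs tested were called). It was 0.0015 with DESeq2's size factors, 0.11 against control 8 h and 0.018 against the summed controls. Its spread without SE 4 h was 0.24, and without each library in turn 0.24 to 0.44 (0.45 to 0.54 for miR-191-5p).

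Comparisons between time-points within an arm were refitted after seeing the data. At a BCV of 0.4 the differences of miR-191-5p (1.06 in control 24 h over 4 h, 0.62 in SE 24 h over 4 h, 0.93 in SE 2 weeks over 4 h) and of miR-425-5p (0.94 and 1.21 in SE) were not called, and by library size that of miR-191-5p in SE 24 h over 4 h, 0.56, was not.

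In the comparison of 3 SE with 3 control libraries DESeq2's Wald test called 4 miRNAs and scaling without miR-486b-5p called 3. Leaving out each library called 0. Without control 24 h, SE 4 h or SE 8 h the log2 fold change of miR-191-5p was 0.29, 0.0038 or 0.034, and over the 6 libraries left out it ranged from -0.30 to 0.29, against -0.63 to -0.21 for miR-425-5p. The log2 ratio difference ranged from 0.21 to 0.72. No paired analysis by replicate number was possible because the labels number no replicates. With time-point as a block the adjusted p was 0.890 for miR-191-5p and 0.654 for miR-425-5p (quasi-likelihood test). By Pearson's r miR-191-5p was at position 9 rather than 21 from miR-425-5p.

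The shallowest library, control 4 h, limits miR-425-5p there to 313 counts, and both 3p strands were at few counts in every library.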
